A study of Sus scrofa domesticus with 9 samples.

Results

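The chemokine ligand and chemokine receptor genes of the pig lung were examined in animals fed a standard or an increased dose of cholecalciferol (vitamin D3). Members were chosen by gene symbol alone, as genes whose name begins with CCL, CXCL, CX3CL, XCL, CCR, CXCR, CX3CR, XCR or ACKR followed by a digit. They are 42 of the 35670 genes in the table, namely 24 ligands and 18 receptors, of which 25 (14 ligands and 11 receptors) had a mean normalized count over 20 and were tested among 12446 genes.

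Messenger RNA of the lung was measured in 9 female pigs with 3′-end sequencing, in which about one read is made per transcript near its 3′ end, so counts of different genes were compared without dividing by length. The 4 standard dose animals (replicates 9, 17, 33 and 41) received 2000 IU/kg of cholecalciferol in grower feed and 1500 IU/kg in finisher feed, and the 5 increased dose animals (replicates 3, 19, 27, 51 and 59) received 3000 and 2500 IU/kg, for 88 days in both groups. The feed was otherwise the same, there was no group without cholecalciferol, and each library came from 1 animal kept in a pen of its own. The sex follows the labels and the study's methods, while the study's discussion gives males for the mRNA sequencing. Breed and age are not given in the sources used here. The tissue was bulk lung, in which fewer cells of a type and less RNA per cell cannot be told apart.

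Chemokines are small secreted proteins that guide leukocytes along a gradient, and they are grouped by the spacing of a pair of cysteines near the start of the mature protein. They act through receptors of the family with 7 membrane-spanning helices, which couple to inhibitory G proteins, while the atypical receptors (ACKR genes) bind the same ligands without that coupling and remove or carry them. In the lung they place macrophages, neutrophils, lymphocytes and dendritic cells, both at rest and during inflammation.

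The coding sequences below were read from RefSeq on Sscrofa11.1 and are shown because the spacing of the paired cysteines is what divides the ligands named here into the CXC and CC classes. The capitals mark the 2 cysteine codons, and 1 codon lies between them in the CXC ligands and none in the CC ligands. The stretches lie in coding exons at chr14:91520793-91520825 (CXCL12), chr2:137812612-137812638 (CXCL14), chr8:71695262-71695294 (CXCL10), chr12:39654240-39654269 (CCL5), chr10:32111478-32111507 (CCL19), chr12:39620726-39620755 (CCL16) and chr12:39479909-39479938 (CCL4). CXCL14, CXCL10 and CCL4 are on the minus strand and the others on the plus strand.
CXCL12: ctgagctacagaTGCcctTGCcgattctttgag
CXCL14: tccaaaTGCaagTGCtcccggaaggga
CXCL10: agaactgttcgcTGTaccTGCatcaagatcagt
CCL5: gacaccacacccTGCTGTttttcctacctc
CCL19: gatgctgaagacTGCTGCctgtctgtgact
CCL16: cctccacccaccTGCTGCctgacgtatcat
CCL4: cctcccacctccTGCTGCttcacatacacc

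For the receptors, the codons that align with the Asp-Arg-Tyr motif of CCR1 are shown, since that motif at the inner end of the third helix is used for G protein coupling and is altered in some atypical receptors. The capitals mark the 3 codons of the motif. ACKR2 departs from Asp-Arg-Tyr and ACKR4 keeps it. The signalling receptors CXCR6 and XCR1, whose codons are not shown, also depart from it. The stretches lie at chr13:29229370-29229393 (CCR1, minus strand), chr15:15666041-15666064 (CXCR4, plus), chr13:26323509-26323532 (ACKR2, plus) and chr13:73776722-73776745 (ACKR4, plus). Over its aligned residues the CCR1 protein was 59.0% identical to CCR2, 32.4% to CXCR4, 39.3% to ACKR2 and 34.2% to ACKR4.
CCR1: atcGACAGGTACctagccatcgtc
CXCR4: ctgGACCGGTACctggctatcgtc
ACKR2: ctgGACAAGTACctggagattgtg
ACKR4: ataGACAGATACtgggcagtaacg

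The libraries held 4253502 to 5411543 reads in genes at the standard dose and 4427608 to 5919294 at the increased dose. Standard dose replicates 9 and 41 stood apart, with a median Spearman correlation to the other libraries, across genes, of 0.751 and 0.831 against 0.912 to 0.933 in the remaining 7. All 12 listed hepatocyte markers were measured in these lung libraries, none of them at 0 throughout, at a summed normalized count of 46766 to 332315 at the standard dose and 26325 to 57395 at the increased dose, with 332315 in replicate 9 and 99517 in replicate 41. The 6 skeletal muscle markers summed to 35907 in replicate 9 and 252397 in replicate 41, against a median of 97196 in the other 7 libraries. Markers of type 2 pneumocytes, the surfactant-making cells of the lung, were present in every library, at a sum of 3619 in replicate 9 and up to 26309 elsewhere. No label gives a batch. Fold changes without replicate 41 and without both are plotted for every tested member and the larger moves are given in the text, with 2 standard dose libraries left when both are out.

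Among the 24 ligands that carry a symbol, CXCL14 and CXCL12 held the largest shares of the counts. CXCL14, a ligand made constitutively by epithelia, held a median of 20.8% of the summed ligand counts per library (6.86% to 31.8%). CXCL12, the stromal ligand of CXCR4 and ACKR3, held a median of 16.1% (12.4% to 39.8%). CCL5 followed with a median of 8.83%, CXCL10 with 6.57% and CCL4 with 6.17%. The composition was not the same in all animals, and replicate 9 owed 19.6% of its ligand counts to CCL19 while replicate 41 owed 39.8% to CXCL12 and 14.2% to CCL16.

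**Figure D1:**
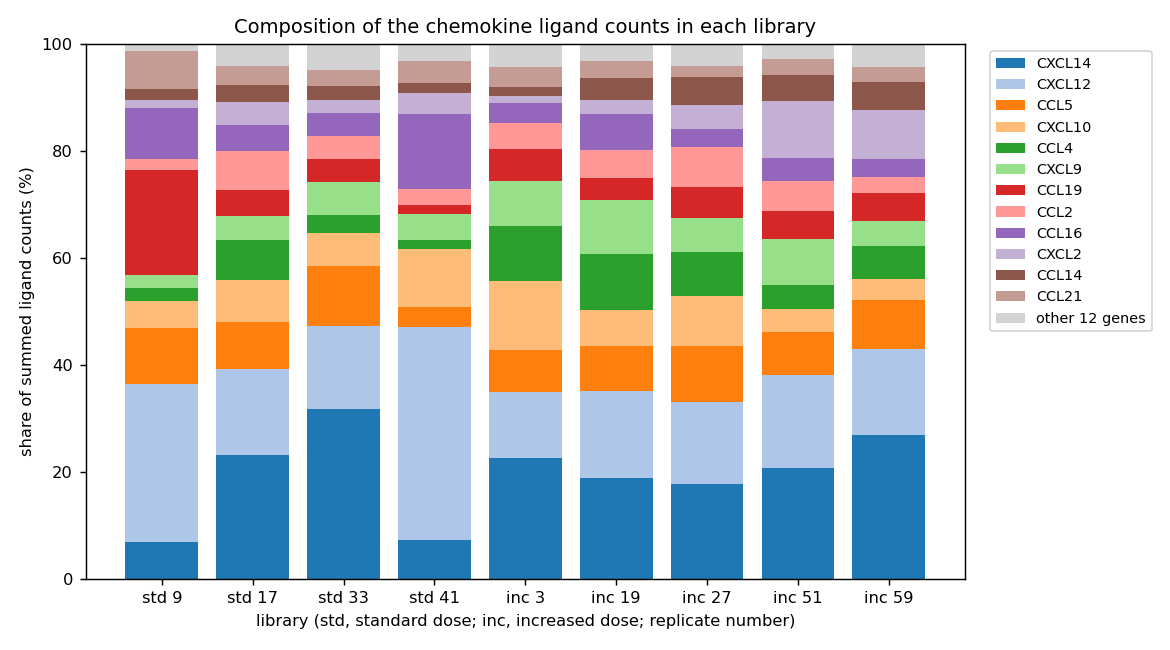
Share of the summed ligand counts (%, y axis) taken by each ligand gene in each of the 9 libraries (x axis), with the 12 least abundant genes in grey. CXCL14 and CXCL12 lead in most libraries, and standard dose replicates 9 and 41 show CXCL14 at 6.86% and 7.33% and CXCL12 at 29.5% and 39.8%.

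Among the receptors, CXCR4, which directs leukocytes to CXCL12, held a median of 29.6% of the summed counts of the 18 receptors (14.5% to 41.2%). CCR1, a receptor of inflammatory CC ligands on monocytes and neutrophils, held 15.8%, and ACKR4, which removes CCL19 and CCL21, held 11.5%. The counts of all 24 ligands together came to 4443 ± 1448 (mean ± SD, n = 4) for standard dose animals against 3566 ± 711 (n = 5) for the others. Those of the 18 receptors came to 812 ± 270.4 and 1158 ± 111, with the lowest receptor sum, 445, in replicate 41. These 2 sums were not tested.

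**Figure D2:**
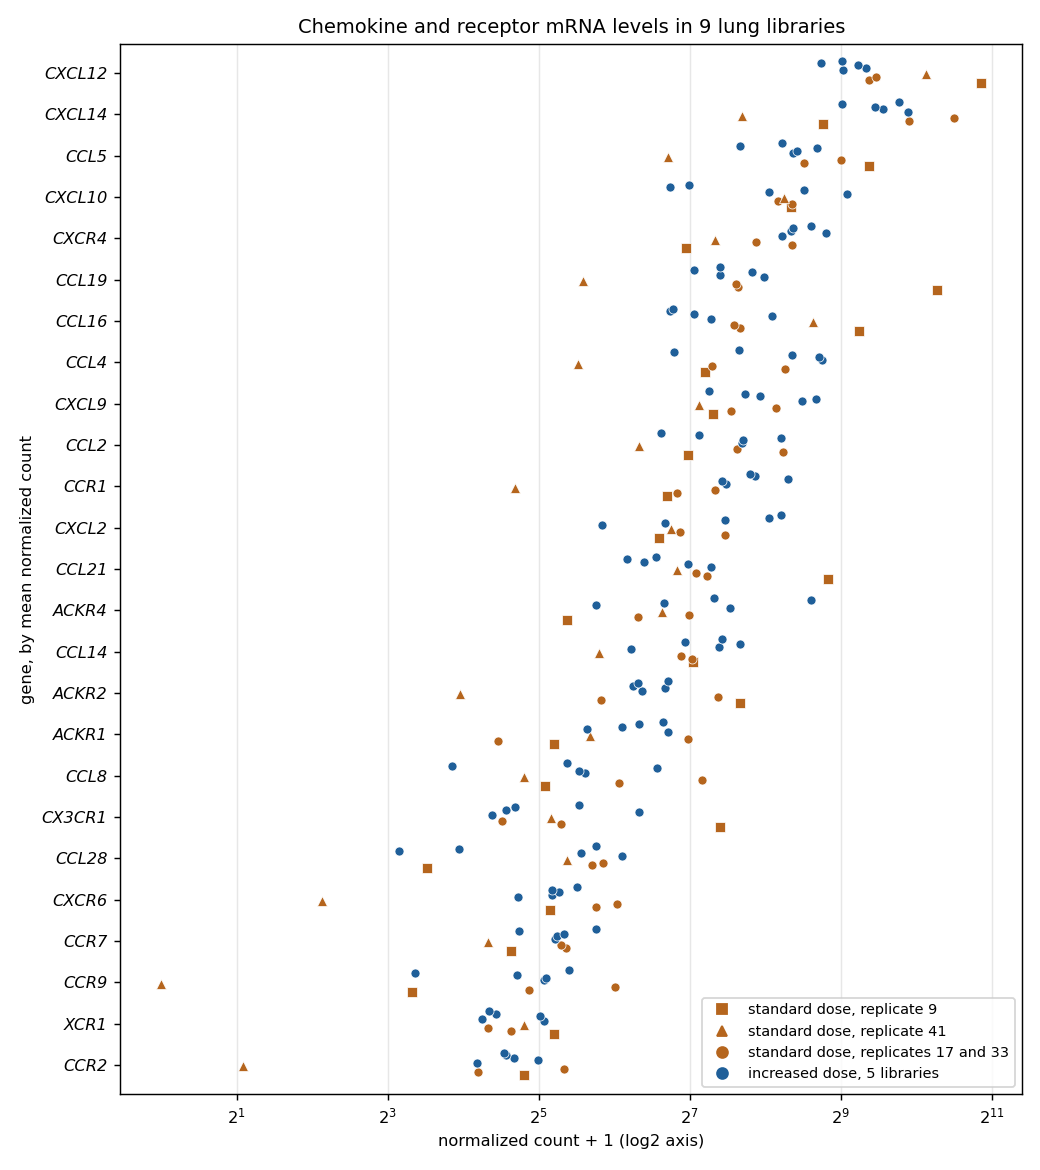
Normalized count plus 1 (x axis, log2 scale) of the 25 tested genes (y axis, by mean) in each of the 9 libraries, with standard dose libraries in brown and increased dose libraries in blue. Standard dose replicate 41 (triangles) is the lowest of the 9 libraries for 13 genes, and standard dose replicate 9 (squares) is the highest for 8.

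The comparison of the doses asked whether more dietary cholecalciferol went with other levels of these genes. No chemokine or receptor gene passed the threshold between the doses. With limma, 0 of the 25 had an adjusted p under 0.05, as did 0 of all 12446 genes (0%), and the smallest adjusted p of any gene was 0.397. edgeR and DESeq2 on the recovered reads also called 0 of the 25, while over all genes they called 0 and 195. At an unadjusted p under 0.05, limma listed 4 of the 25 members (16%) beside 1514 of all genes (12.2%), edgeR listed 5 members (beside 15% of all genes) and DESeq2 listed 6 (beside 13.6%). With limma, CCR1 and CXCR4 were the 2 with higher values at the increased dose (8%, against 5.57% of all genes). CXCL12 and CCL16 were the 2 with lower values (8%, against 6.6%). Both edgeR and DESeq2 listed these 4 and CCL21, with a lower value, and DESeq2 also listed ACKR4, with a higher value.

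The ligand with the highest mean count was CXCL12. Its normalized counts were 1860.4, 663, 703 and 1114 in standard dose replicates 9, 17, 33 and 41, and 522, 646, 596, 428 and 516 in increased dose replicates 3, 19, 27, 51 and 59. Every standard dose library was above every increased dose library, but replicates 17 and 33 were close to the highest increased dose library (663 and 703 against 646), and replicates 9 and 41 held the high values. On the log2 scale of the normalized count plus 1, the increased dose was lower by a log2 fold change of -0.88 (SE 0.296, limma, unadjusted p = 0.0105, adjusted p = 0.397). The exact two-sided permutation test gave p = 0.00794, the smallest that 4 against 5 libraries allow. The log2 fold change was -0.58 without replicate 9, -0.35 without replicates 9 and 41, and -0.19 with the level of the hepatocyte markers as a covariate. In the same libraries the 12 hepatocyte markers had a mean log2 level of 13.84 in replicate 9 and 12.22 in replicate 41 against 10.25 to 11.32 in the other 7. All 12 were lower at the increased dose at an unadjusted p under 0.05 (limma), beside 6.6% of all genes. Their median log2 fold change was -1.32. The covariate thus differed with the dose, and fits with it, here and below, cannot tell dose and marker level apart.

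CXCR4, the signalling receptor of CXCL12, had the opposite sign. Its normalized counts were 122, 327, 235 and 160.1 in standard dose replicates 9, 17, 33 and 41, and 298, 447, 322, 329 and 388 in the increased dose replicates. Replicates 9 and 41 were again at the end of the range, here the low one, and replicate 17 lay among the increased dose libraries, so the groups overlapped. The log2 fold change was 0.84 (SE 0.285, limma, unadjusted p = 0.0117, adjusted p = 0.397, exact permutation p = 0.0238). It was 0.35 both without replicates 9 and 41 and with the hepatocyte marker level as a covariate.

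The CXCL12 count divided by the CXCR4 count of the same library does not depend on the scaling of libraries. This ratio was 15.2, 2.03, 2.99 and 6.96 in standard dose replicates 9, 17, 33 and 41, and 1.75, 1.45, 1.85, 1.30 and 1.33 in the increased dose replicates. The groups did not overlap, and the nearest libraries were replicate 17 at 2.03 and replicate 27 at 1.85. ACKR3, the other receptor of CXCL12, had a mean of 18.8 and was not tested.

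CCL16 was, after CXCL12, the other ligand at an unadjusted p under 0.05, and its groups overlapped. In humans it is made mainly by hepatocytes and attracts monocytes and lymphocytes. Its normalized counts were 601, 201, 191 and 396 in standard dose replicates 9, 17, 33 and 41, and 155, 270.4, 132, 106 and 109 in the increased dose replicates. The 2 highest values were those of replicates 9 and 41, the 2 libraries with the highest hepatocyte marker levels, and replicate 19, with the highest hepatocyte level of the increased dose group (11.32), was the highest of that group. The log2 fold change was -1.09 (SE 0.379, limma, unadjusted p = 0.0133, adjusted p = 0.397, exact permutation p = 0.0556), -0.43 without replicates 9 and 41, and -0.18 with the hepatocyte marker level as a covariate. The part of the hepatocyte marker level in the CCL16 values was not tested, and that level also differed between the doses.

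CCR1, a receptor of CCL5 that monocytes and macrophages carry, was higher in every increased dose library than in any standard dose library. It had normalized counts of 103, 112, 160.1 and 24.6 in standard dose replicates 9, 17, 33 and 41, and of 177, 171, 314, 231 and 221 in the increased dose replicates. Replicate 41 was far below the other libraries and replicate 33 was just below the lowest increased dose library. Its log2 fold change was 1.39 (SE 0.447, limma, unadjusted p = 0.00849, adjusted p = 0.397, exact permutation p = 0.00794). The log2 fold change was 0.82 without replicate 41, 0.69 without replicates 9 and 41, and 1.08 with the hepatocyte marker level as a covariate.

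Macrophage and neutrophil markers were listed beside CCR1. All 8 tested macrophage markers of the 9 listed were lowest in replicate 41, as was CCR1, and they summed to 3747 normalized counts there, 3747 to 16027 over the standard dose group and 13715 to 20931 at the increased dose. In standard dose replicates 9, 17 and 33 the mean log2 macrophage level was 9.99, 10.07 and 10.26, in the same order as the CCR1 counts. In the increased dose group, replicate 19 had the highest macrophage level and the lowest CCR1 count. Of the 8, 7 had positive values with a median log2 fold change of 0.76. Of these, 1 was at an unadjusted p under 0.05 (limma), where 5.57% of all genes were higher at that p. Without replicates 9 and 41 the macrophage values ran from -0.14 (CSF1R) to 0.59 (CD163), with MARCO at 0.04 and C1QA at 0.02. The 4 tested neutrophil markers of the 6 listed were all positive with a median of 0.75, and 2 of them were at an unadjusted p under 0.05. Their sum was lowest in replicate 9 at 351, with up to 2034 at the standard dose and 1619 to 2656 at the increased dose. Without replicates 9 and 41 the log2 fold changes were -0.38 for CSF3R, -0.15 for MMP9, 0.24 for S100A8 and 0.34 for S100A12. The part of the macrophage and neutrophil levels in the CCR1 values was not tested. CXCL12 and CCR1 were the 2 of 25 members whose groups did not overlap (8%), beside 3.81% of all genes tested.

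**Figure D3:**
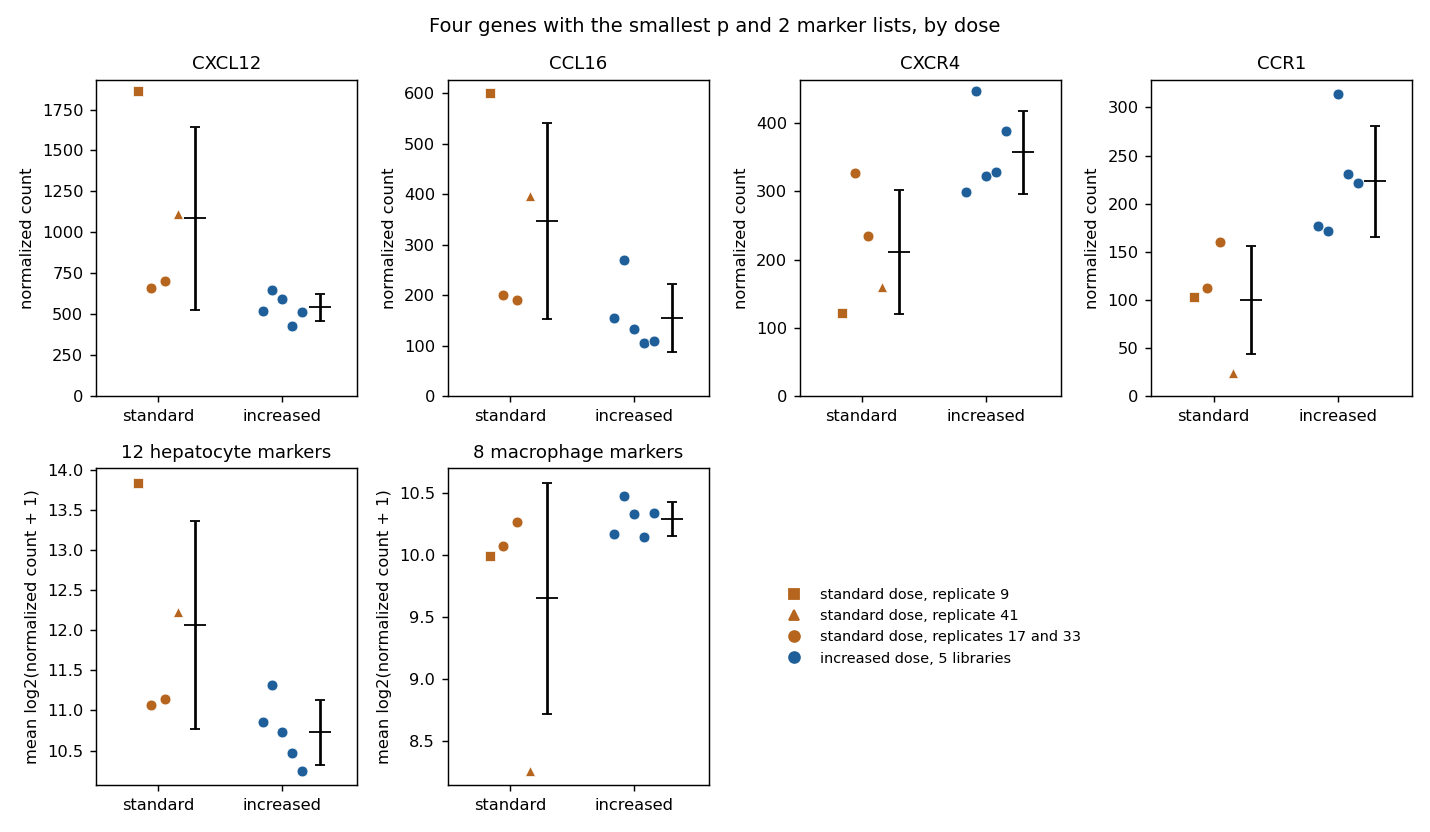
Normalized counts (y axis) of CXCL12, CCL16, CXCR4 and CCR1, and the mean log2 level of 12 hepatocyte and 8 macrophage markers, by dose (x axis). Each point is a library and the bars are mean ± SD (n = 4 and n = 5). Replicates 9 and 41 hold the extreme standard dose values of CXCL12 (1860.4 and 1114), CCL16 (601 and 396) and CXCR4 (122 and 160.1).

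The doses overlapped for both CCL5 and CCL4. CCL5, which T cells and NK cells secrete, had normalized counts of 664, 364, 509.8 and 104 in standard dose replicates 9, 17, 33 and 41, and of 329, 341, 410.1, 202 and 298 in the increased dose replicates. The standard dose libraries spanned the whole range and enclosed the increased dose group. The log2 fold change was -0.13 (SE 0.445, limma, adjusted p = 0.914), which was 0.20 without replicate 9 and -0.69 without replicate 41 (limma, adjusted p = 0.493). CCL4, which macrophages and lymphocytes secrete, had 146, 304, 156 and 44.8 at the standard dose and 429.6, 419.7, 327, 109 and 199 at the increased dose. Replicates 3, 19 and 27 were above all standard dose libraries and replicates 51 and 59 were within their range, with a log2 fold change of 0.99 (SE 0.519, limma, unadjusted p = 0.0806, adjusted p = 0.431). It was 0.47 without replicate 41 and 0.28 without replicates 9 and 41.

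The CCL5 to CCR1 ratio within a library was 3.19 to 6.45 at the standard dose and 0.875 to 1.99 at the increased dose, so the groups were apart. The CCL4 to CCR1 ratio overlapped, at 0.973 to 2.71 and 0.473 to 2.45. Of the 9 ligand and receptor pairs for which a ratio was computed, the groups were apart in 2, the CXCL12 to CXCR4 and the CCL5 to CCR1 pair. The pairs were chosen with the values of the single genes known, so the ratios are a description.

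**Figure D4:**
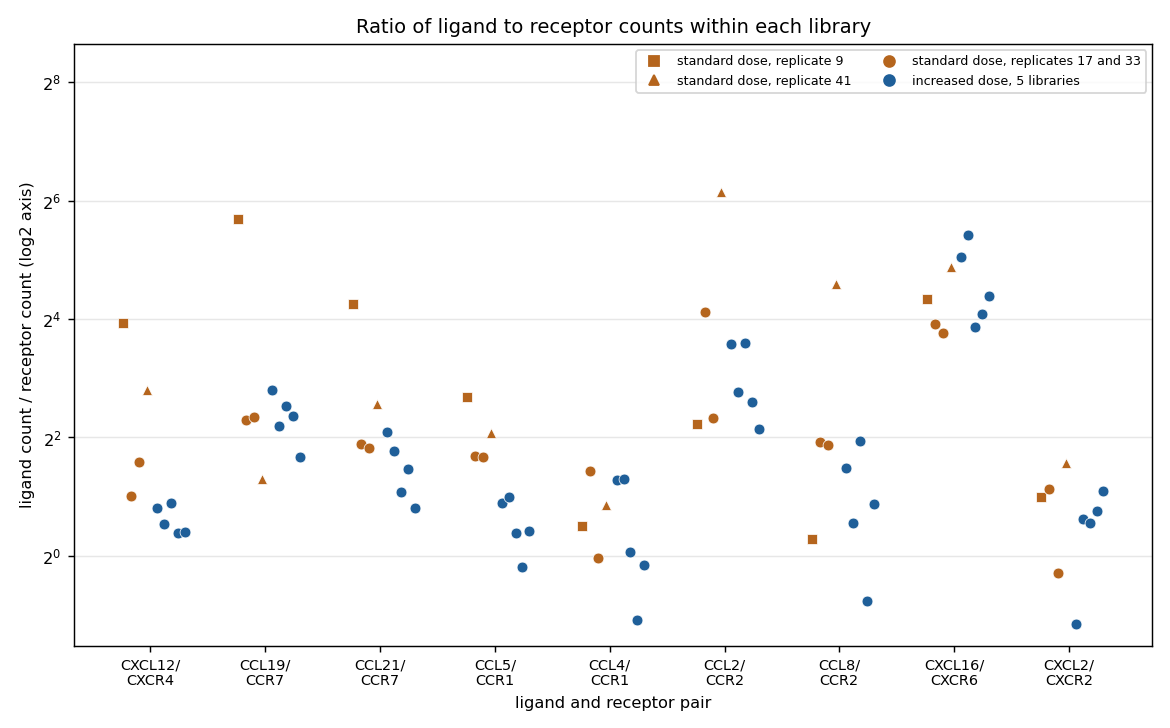
Ligand count divided by receptor count (y axis, log2 scale) in each library for 9 ligand and receptor pairs (x axis), with standard dose libraries in brown and increased dose libraries in blue. The groups are apart for CXCL12/CXCR4 (2.03 to 15.2 against 1.30 to 1.85) and CCL5/CCR1, and overlap for the other pairs.

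CCL19 and CCL21 guide T cells and dendritic cells into lymphoid tissue, and both were uneven among the standard dose animals. CCL19 had normalized counts of 1238, 198, 195 and 47.0 in standard dose replicates 9, 17, 33 and 41, and of 252, 167, 226, 132 and 169 in the increased dose replicates. Replicates 9 and 41 were the highest and the lowest of all 9 libraries, 26.3 times apart, and the log2 fold change was -0.24 (SE 0.666, limma, adjusted p = 0.890) with all libraries, 0.59 without replicate 9 and -0.98 without replicate 41. CCL21 had 454, 149, 135 and 113 at the standard dose and 154, 125, 82.7, 71.1 and 92.4 at the increased dose. Only replicate 9 was outside the range shared with the other group at its upper end, and the log2 fold change was -0.82 (SE 0.393, limma, unadjusted p = 0.0565, adjusted p = 0.418). It was -0.38 without replicate 9 and -0.03 with the hepatocyte marker level as a covariate. Their receptor CCR7, carried by naive T cells and mature dendritic cells, ranged from 19.0 to 40.2 at the standard dose and from 25.8 to 53.0 at the increased dose, with a log2 fold change of 0.35 (SE 0.382, limma, adjusted p = 0.697).

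CXCL14 had normalized counts of 433, 953, 1446 and 205 in standard dose replicates 9, 17, 33 and 41, and of 952, 756, 697, 514 and 870.4 in the increased dose replicates. Both the highest and the lowest library were standard dose libraries. The group means were 759 ± 555 (SD, n = 4) and 758 ± 168 (SD, n = 5), the log2 fold change was 0.33 (SE 0.458, limma, adjusted p = 0.769), and it was -0.66 without replicates 9 and 41. CCL14, found in human blood plasma at rest, had a log2 fold change of 0.43 (SE 0.354), and of 0.14 without replicate 41. CCL28, a ligand of mucosal epithelia, ranged from 7.84 to 67.8 over the 9 libraries with a log2 fold change of -0.21 (SE 0.680), and of -0.87 without replicates 9 and 41.

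CXCL10, an interferon-induced ligand of CXCR3 on activated T cells, was even among the standard dose animals and uneven among the increased dose animals. It had normalized counts of 322, 326, 285 and 303 in standard dose replicates 9, 17, 33 and 41, and of 542, 263, 365, 106 and 126.1 in the increased dose replicates. Replicates 9 and 41 did not stand apart here, and the increased dose libraries lay on both sides of the standard dose range. The log2 fold change was -0.40 (SE 0.416, limma, adjusted p = 0.679). The SD of the log2 level was 0.0888 at the standard dose and 0.995 at the increased dose, a difference in spread that was not tested. CXCL9, also a ligand of CXCR3, ranged from 139 to 280.1 and from 152 to 405, with a log2 fold change of 0.49 (SE 0.317, limma, adjusted p = 0.494) that was 0.17 without replicates 9 and 41. CXCL9 and CXCL10 had higher counts in increased dose replicates 3, 19 and 27 than in replicates 51 and 59, as did CCL4.

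The promoters of CXCL9 and CXCL10 were searched for the core of the interferon-stimulated response element, because both genes are known for their induction by interferon. The letters GAAANNGAAA were looked for on both strands from 250 bases before to 50 bases after each RefSeq gene start. They were present in 3 of the 42 members (7.14%) and in 700 of 19559 promoters of protein-coding genes (3.58%). The 3 were CXCL9, at 211 bases before the start (chr8:71670428-71670457, minus strand), CXCL10, at 225 bases before the start (chr8:71696154-71696183, minus strand), and CCL19, at 179 bases before the start (chr10:32110177-32110206, plus strand). The CCL19 match lies before the RefSeq start (32110366) but inside the gene model used for the counts, which starts at 32110065. The capitals mark the match, which describes the letters and not a site in use.
CXCL9: ccgtttatgtGAAATGGAAAggaaggaata
CXCL10: ttatgttttaGAAAGCGAAAcctaaatcac
CCL19: tcagagcagaGAAAGTGAAAgttccggacc

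The direct repeat with a spacer of 3 to which the vitamin D receptor binds was searched in the same windows and was found in 0 of the 25 tested members, in 1 of the 42 (CCL26, at a mean of 2.31) and in 0.302% of all promoters. With so low a share over all promoters, 0 of 25 cannot set the members apart. Sites farther from the gene start and looser forms of the repeat were not searched.

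The ligands of monocytes and neutrophils did not separate the doses. CCL2, which draws monocytes through CCR2, ranged from 79.5 to 301 at the standard dose and from 97.3 to 294 at the increased dose (log2 fold change 0.18, SE 0.401, and -0.46 without replicates 9 and 41). CCL8, another CCR2 ligand, ranged from 26.9 to 143 and from 13.4 to 94.0 (log2 fold change -0.39, SE 0.574, and -1.23 without replicates 9 and 41). CXCL2, which draws neutrophils through CXCR2, ranged from 95.5 to 176 and from 56.1 to 294 (log2 fold change 0.33, SE 0.440, and 0.08 without both). For CXCL2 the increased dose group held both the lowest and the 2 highest libraries. CXCL8, the main neutrophil ligand in humans, had a mean of 11.3 and was not tested.

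None of the 3 tested atypical receptors passed the threshold. ACKR4 had normalized counts of 40.3, 78.6, 126.1 and 98.5 in standard dose replicates 9, 17, 33 and 41, and of 185, 52.9, 100.1, 388 and 159 in the increased dose replicates, with its highest value in replicate 51 (log2 fold change 0.85, SE 0.501, limma, adjusted p = 0.467, and 0.52 without replicates 9 and 41). With the hepatocyte marker level as a covariate its log2 fold change was 0.02. Its gene lies for all of its 5414 bases inside ACAD11 on the opposite strand. The strand setting of the counting is not given in the sources used here, so its reads are uncertain. ACKR2, a scavenger of inflammatory CC ligands, had 201, 55.8, 165 and 14.6 and 81.4, 101, 74.9, 78.3 and 104. Its standard dose libraries spanned 13.8 times and enclosed the whole increased dose group. Its log2 fold change was 0.25 (SE 0.601), but -0.29 with edgeR, -0.31 with DESeq2 and -0.49 without replicate 41. ACKR1, which venous endothelium uses to carry chemokines, had 35.8, 21.0, 125 and 50.4 and 104, 48.6, 67.9, 79.3 and 99.2 (log2 fold change 0.70, SE 0.452, limma, adjusted p = 0.489). The highest ACKR1 value, in replicate 33, and the lowest, in replicate 17, both came from the standard dose.

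The remaining signalling receptors were low. CX3CR1, a receptor of patrolling monocytes and NK cells, was highest in replicate 9 at 167 and ranged from 19.9 to 79.3 in the other libraries (log2 fold change -0.49, SE 0.586, and 0.11 without replicate 9). CXCR6, of tissue-resident T cells, was lowest in replicate 41 at 3.36 and ranged from 25.3 to 64.4 elsewhere (log2 fold change 0.40, SE 0.678), and 4171 bases of it overlap a more highly counted gene on the opposite strand. CCR9, which directs lymphocytes to the gut, was at 0 reads in replicate 41, where 3 reads would be 3.36 normalized counts, and ranged from 8.95 to 63.5 elsewhere (log2 fold change 1.18, SE 1.007). CCR2, of monocytes, was at 1.12 in replicate 41 and from 17.2 to 39.1 elsewhere (log2 fold change 0.73, SE 0.767). The positive values of CXCR6, CCR9 and CCR2 turned to -0.48, -0.0039 and -0.19 without replicate 41. XCR1, of cross-presenting dendritic cells, had the narrowest range of the 25 genes, from 17.9 to 35.8 (2.00 times), with a log2 fold change of -0.12 (SE 0.417).

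As a group, the 11 receptors had a median log2 fold change of 0.70 with 9 positive and 2 negative values, and the 14 ligands a median of -0.17 with 6 positive and 8 negative. The median over all 12446 genes was 0.01. The receptor median was -0.0039 without replicate 41, with 5 positive and 6 negative values, and 0.14 without replicates 9 and 41, with 6 and 5. It was 0.58 without replicate 9, with 11 positive and 0 negative values, and 0.92 without replicate 33, with 9 and 2. With all 9 libraries it was 0.16 with edgeR and with DESeq2, each with 7 positive and 4 negative values, and 0.22 with array weights, with 8 and 3. It was 0.35 both with quantile normalization and with the hepatocyte covariate, each with 9 and 2. The ligand median was -0.30 without replicate 41, 0.12 without replicate 9 and -0.41 without both. Replicate 41 was the lowest library for 13 of the 25 members (52%) beside 22.4% of all genes tested, and replicate 9 was the highest for 8 (32%) beside 29.1%. In 20 of the 25 (80%), replicate 9 or 41 held the highest or the lowest value, as in 78.5% of all genes tested.

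**Figure D5:**
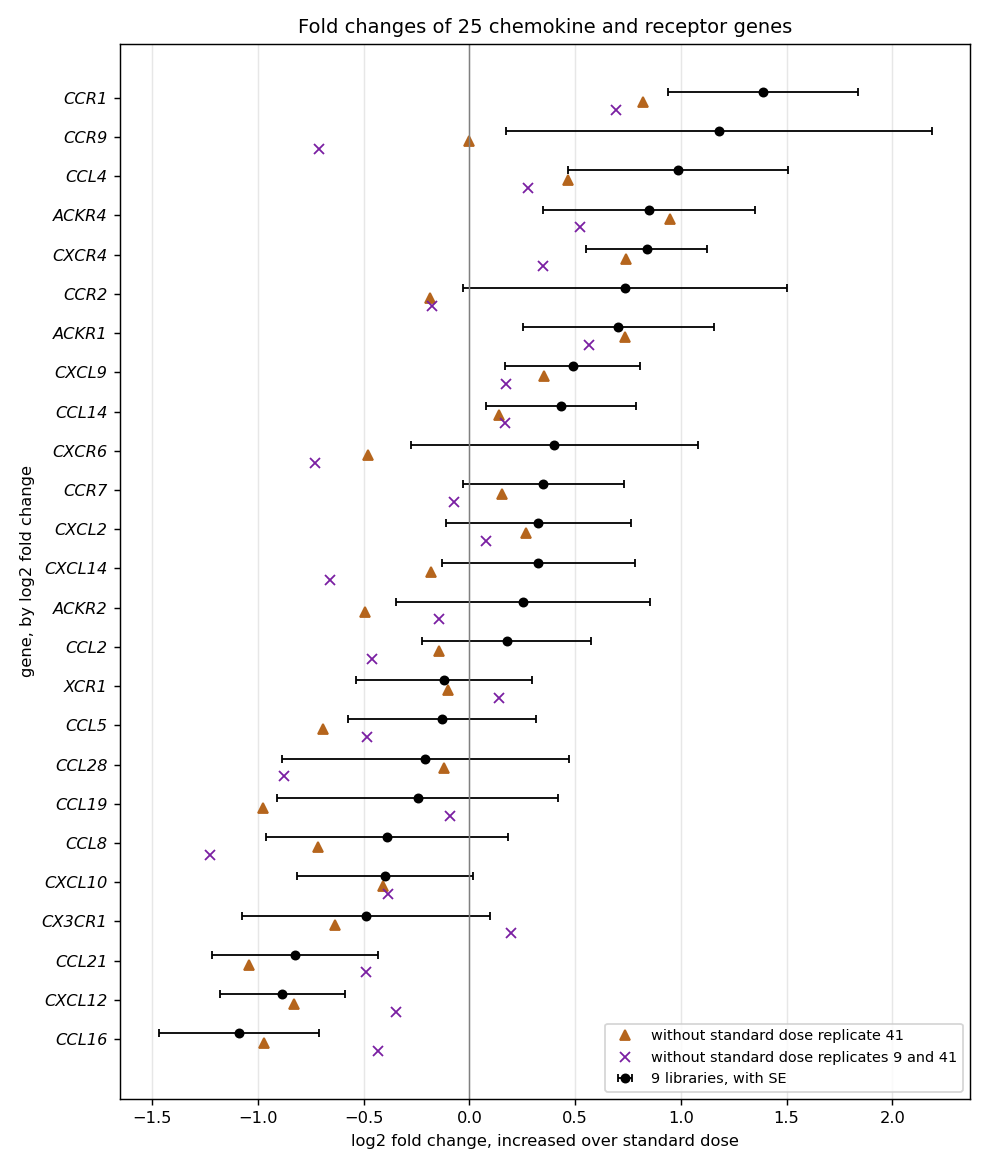
Log2 fold change, increased over standard dose (x axis), of the 25 tested genes (y axis), with all 9 libraries (black, bars are SE), without standard dose replicate 41 (triangles) and without standard dose replicates 9 and 41 (crosses). CCR1 stays positive at 1.39, 0.82 and 0.69, while CCR9, CCR2 and CXCR6 move from positive to negative values.

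Genes that act below the receptors were listed beside them. Of 28 tested genes of chemokine receptor signalling (of 31 listed), 0 passed the threshold, 24 had positive values and the median log2 fold change was 0.20. Of all 12446 genes, 6318 had positive values. Without replicate 41 the signalling genes had 19 positive and 9 negative values with a median of 0.16. Without replicates 9 and 41 they had 15 and 13 with a median of 0.03. NCF1, FGR, PTK2B and ARRB1 had an unadjusted p under 0.05, all with higher values at the increased dose, where 5.57% of all genes were higher at that p. NCF1, a subunit of the phagocyte oxidase, had the largest log2 fold change of these (1.18, SE 0.486), and FGR, a myeloid tyrosine kinase, had 0.96 (SE 0.349). None of the 4 was at an unadjusted p under 0.05 without replicate 41. Of 8 tested relatives outside the symbol rule (of 12 listed), 0 passed. With limma, beside 5.57% of all genes, 4 of the 8 were higher at the increased dose at an unadjusted p under 0.05. They were PPBP, a platelet CXC chemokine (log2 fold change 1.62, SE 0.570), CMKLR1, the receptor of chemerin (0.79, SE 0.331), GPR35, a G protein-coupled receptor of leukocytes (0.80, SE 0.332), and TNFAIP6, a chemokine-binding matrix protein (2.06, SE 0.897). Without replicate 41, 0 of the 8 relatives were at an unadjusted p under 0.05. edgeR listed only RARRES2, which encodes chemerin, with a lower value (-0.97), and DESeq2 listed RARRES2 (-0.99) and DPP4 (-0.66) as lower and PPBP (1.07) as higher. Of 11 tested inducers of chemokine genes (of 14 listed), 0 passed and the median was -0.05. NFKB1 was lower (-0.71, SE 0.258) and CEBPB higher (0.64, SE 0.281) at an unadjusted p under 0.05 (limma), beside 12.2% of all genes in either direction. Without replicates 9 and 41 the values were -0.31 for NFKB1, no longer at that p, and 0.73 for CEBPB.

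The 17 members that were not tested comprised 13 with a mean from 0.971 to 18.8 and 4 without a read in any library, which were CXCR5, CCL1, CCR6 and CX3CL1. ACKR3 at 18.8 was just under the minimum and CCR2 at 22.4 just over it. A count of 0 allows up to 3 reads per library, equal to 2.56 to 4.48 normalized counts, and covers counting error only. The gene models also bore on these values, since reads come from the 3′ end. For 4 members the RefSeq gene ended over 1000 bases downstream of the gene model in the files, by 24046 bases for CCL17, 2008 for CCR6, 1345 for CX3CL1 and 1074 for CCR8, and the highest mean of these 4 was 1.52. All 25 tested members were among the other 38. Whether reads beyond the model ends were lost was not tested.

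Some chemokine genes carry no symbol in the table and so fell outside the rule. Of 7 found from descriptions, names or position, 4 were tested. CXCL16, the membrane-bound ligand of CXCR6, had a mean of 763, beside 783 for CXCL12 and 758 for CXCL14, with 98.5 in replicate 41 and 543 to 1495 in the other libraries (log2 fold change 0.81, SE 0.560, and 0.06 without replicate 41, -0.02 without replicates 9 and 41). CCL24, an eosinophil attractant, had a mean of 477 and a log2 fold change of 1.30 (SE 0.797), which was 0.40 without replicate 41 and -0.41 without both. CXCR2, the neutrophil receptor, had 0.80 (SE 0.396), and 0.50 and 0.12 in these refits. CCL3L1 had 0.14 (SE 0.575), and 0.67 and 0.94. The adjusted p of these 4 from limma was 0.421 to 0.926. CCL20 had no read.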

How the data were processed

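Lung mRNA of 9 pigs (4 standard dose, 5 increased dose, 1 library per animal) was analysed, after the authors rejected 1 of 10 libraries. Per the labels and the study's methods, reads were mapped by TopHat to Sscrofa11.1 and counted per gene by HTSeq. As signal, the authors deposited DESeq2-normalized counts, each library scaled by its own size factor. Every value was a whole multiple of the value of 1 read (100% within 0.01), so reads were recovered. The deposited log2 fold changes with their errors, the score (Wald statistic) and the deposited p-values of the authors' own comparison were not used. A second deposited sheet gave positions. Groups and replicate numbers follow the sample titles. For replicate 33 the description and column give another number.

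Genes with a mean over 20 were tested with limma 3.58.1 (trend) on log2(normalized count + 1), two-sided, with Benjamini-Hochberg adjustment over 12446 genes and a threshold of 0.05. Exact two-sided permutation tests over the libraries were added. Alternatives were pseudocounts of 0.5 and 5, other filters, TMM and quantile scaling, array weights, edgeR 4.0.16 and DESeq2 1.42.0 on recovered reads, left-out libraries and a hepatocyte marker covariate. The fit was tested on simulated data. All tested members were named. Values in every library were given for the 5 ligands and 5 receptors of highest mean and those with an unadjusted p under 0.05 or groups that did not overlap. Their tested partners were given likewise, except CCR7, which was given as ranges, and CCL21 was added. 1 gene that meets the symbol rule is not reported here and enters no count of members, though it stayed in the fit over all genes. Members, lists of pathway genes and markers were chosen with earlier results of these data known. Sequences are RefSeq on Sscrofa11.1, in which all 42 members matched by symbol. Depth was 4253502 to 5919294 reads in genes. Ratios of counts were not tested.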

Additional observations from a re-analysis of the deposited data

Results flagged for a closer look

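Each tested member was examined in each dose group for a library that stood far from the others, by the gap to its nearest neighbour divided by the range of the group on the log2 scale. Of 50 groups of values, 1 was past the 95% limit of Dixon's test, where chance alone would mark about 1 in 20. CCL14 was at 54.8 normalized counts in standard dose replicate 41, against 117 to 131 in the other 3 standard dose libraries, with a gap of 0.872 of the range.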

How the results depend on the processing

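No chemokine or receptor gene passed the threshold in any of the 20 refits or in the exact permutation test. Over all genes tested, 2 passed with array weights and 195 with DESeq2, against 0. The median log2 fold change of the 25 members was 0.33 and ranged from -0.14 to 0.49 when 1 library was left out, the lowest value being that without standard dose replicate 41. It was 0.01 with edgeR, -0.0034 with DESeq2, -0.0088 with array weights, -0.14 without replicates 9 and 41 and 0.13 with the hepatocyte covariate. CXCL12, CCL16, CXCR4 and CCR1 kept their sign in every alternative. All 4 had an unadjusted p under 0.05 in 17 of the 20 refits. The exceptions were array weights (without CXCR4), the fit without replicates 9 and 41 (CCR1 alone of the 4) and the hepatocyte covariate (none). Over the alternatives the adjusted p of these 4 was 0.102 to 0.998. Other members were at an unadjusted p under 0.05 in some refits, among them CXCL14 (-0.66) and CCL8 (-1.23) without replicates 9 and 41.

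The sign changed with array weights for CXCL14 (-0.30), CCL2 (-0.48), CXCR6 (-0.33), CCR9 (-0.0088) and XCR1 (0.057). With DESeq2 it changed for CXCL14 (-0.0034), ACKR2 (-0.31) and CXCR6 (-0.14), and with edgeR for ACKR2 (-0.29) and CXCR6 (-0.13). Without replicates 9 and 41 it changed for CXCL14 (-0.66), CCL2 (-0.46), ACKR2 (-0.14), CX3CR1 (0.19), CXCR6 (-0.73), CCR7 (-0.075), CCR9 (-0.71), XCR1 (0.14) and CCR2 (-0.18). With the hepatocyte covariate it changed for CXCL14 (-0.34), CCL5 (0.13), CCL19 (0.83), CCL2 (-0.13), CXCL2 (-0.21), CX3CR1 (0.68), CXCR6 (-0.10), CCR7 (-0.0066) and XCR1 (0.19). With 1 library left out, the range crossed 0 for CXCL14 (-0.18 to 0.76), CCL5 (-0.69 to 0.20), CCL19 (-0.98 to 0.59), CCL2 (-0.14 to 0.49), ACKR2 (-0.49 to 0.74), CCL8 (-0.72 to 0.073), CX3CR1 (-0.85 to 0.11), CCL28 (-0.74 to 0.23), CXCR6 (-0.48 to 0.82), CCR9 (-0.0039 to 2.00), XCR1 (-0.26 to 0.032) and CCR2 (-0.19 to 1.23). The cause was not tested. No paired analysis was possible because the groups share no replicate numbers.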
